A study of Mus musculus with 12 samples.

Results

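Interneurons make up a small share of the cells of the nucleus accumbens, the ventral part of the striatum, and 10 genes that mark them were followed here: Chat, Slc5a7, Sst, Npy, Nos1, Pvalb, Calb2, Th, Lhx6 and Cck. Every probe that the array's probe-to-gene table maps to these symbols was taken, which gave 15 probes of 45281 on the array. A probe was kept for testing if at least 3 of the 12 arrays detected it (detection p below 0.05), which held for 13 of the 15, and each of these 13 was in fact detected on all 12. The other 2, the third probe for Chat (ILMN_2500890) and a second for Lhx6 (ILMN_2774910), were detected on 0 of 12 arrays and were not well above background in any group, so no fold is given for them. All 10 genes kept at least 1 probe.

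The study used C57BL/6J mice aged 8 to 10 weeks, all given 15 daily intraperitoneal injections and killed 1 h after the last. Acute mice received 14 injections of saline and then 1 of cocaine-HCl at 20 mg/kg. Repeated mice received 7 injections of saline followed by 8 of cocaine at this dose. In the withdrawal group mice received 7 of cocaine, 7 of saline and then 1 challenge injection of cocaine, again at this dose, and saline mice received 15 of saline. Each group had 3 arrays (Illumina MouseWG-6 v2.0 bead arrays), and each array carried RNA of bilateral 15-gauge accumbens punches pooled from 4 mice, 12 mice a group. The 3 cocaine groups are all set against the same 3 saline pools, so their differences from saline are not independent of each other. All groups include a cocaine injection 1 h before death except saline, so the effect of earlier cocaine without a final dose was not measured.

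Most striatal neurons are GABAergic medium spiny projection neurons, and interneurons steer them locally. Cholinergic interneurons are large, tonically active cells that make acetylcholine with the enzyme encoded by Chat and take choline back up through the transporter encoded by Slc5a7. GABAergic interneurons fall into classes that include fast-spiking cells with the calcium buffer parvalbumin (Pvalb), cells that contain somatostatin (Sst), neuropeptide Y (Npy) and neuronal nitric oxide synthase (Nos1), cells with calretinin (Calb2), cells with tyrosine hydroxylase (Th), and cells with the peptide cholecystokinin (Cck). Lhx6 is a transcription factor of cells born in the medial ganglionic eminence, the source of most Pvalb and Sst interneurons. Several of these genes are not exclusive to interneurons. Cck is also abundant in cortical pyramidal neurons, and Th is also a gene of the midbrain dopamine neurons whose axons reach the accumbens.

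The promoters of 4 genes are shown. Sst and Th alone held a full cAMP response element among the 9 members with a window to search, which leave out Calb2. Cck and Pvalb are shown because they moved together between pools. Each sequence is the 250 bases before an annotated RefSeq start in build GRCm38.p6, on the minus strand, at chr16:23890845-23891094 for Sst, chr7:142899996-142900245 for Th, chr9:121495695-121495944 for Cck and chr15:78206401-78206650 for Pvalb. Capitals mark matches, on either strand, to the cAMP response element TGACGTCA, its first 5 bases TGACG (which reads CGTCA on the other strand and overlaps the full element), the AP-1 element TGANTCA and the EGR element GCGGGGGCG.
Sst: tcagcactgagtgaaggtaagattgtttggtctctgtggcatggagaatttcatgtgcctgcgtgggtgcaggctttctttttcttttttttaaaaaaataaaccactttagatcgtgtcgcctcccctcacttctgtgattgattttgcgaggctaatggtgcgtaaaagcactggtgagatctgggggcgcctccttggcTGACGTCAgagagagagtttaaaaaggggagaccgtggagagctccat
Th: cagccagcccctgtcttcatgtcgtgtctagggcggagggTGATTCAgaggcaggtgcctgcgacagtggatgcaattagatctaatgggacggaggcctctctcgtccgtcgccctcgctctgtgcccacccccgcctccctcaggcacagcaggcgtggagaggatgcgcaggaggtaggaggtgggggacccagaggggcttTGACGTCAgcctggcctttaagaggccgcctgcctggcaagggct
Cck: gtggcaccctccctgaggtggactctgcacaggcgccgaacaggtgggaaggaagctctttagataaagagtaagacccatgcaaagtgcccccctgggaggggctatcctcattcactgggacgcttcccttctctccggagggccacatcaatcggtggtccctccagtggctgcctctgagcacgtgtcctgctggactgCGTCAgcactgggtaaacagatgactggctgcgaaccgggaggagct
Pvalb: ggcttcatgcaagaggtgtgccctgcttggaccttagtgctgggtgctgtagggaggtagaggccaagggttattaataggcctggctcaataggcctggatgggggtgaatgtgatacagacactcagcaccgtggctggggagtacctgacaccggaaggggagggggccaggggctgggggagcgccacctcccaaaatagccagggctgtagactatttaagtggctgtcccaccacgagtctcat
The full element began 48 bases before the start of Sst and 45 before that of Th, and 1.55% of 32851 windows of this length hold it. The short form stood alone 47 bases before the start of Cck, and 17.8% of windows hold it. It also stood alone in the windows of Nos1 and Chat, at 130 and 171 bases, which are not shown. Th also had an AP-1 match at 210 bases, and a window of Lhx6, not shown, had one at 181 bases. This element is held by 6.75% of windows. The Pvalb window shown held none of the 4 motifs, nor did a second Pvalb window. The EGR element, held by 2.57% of windows, was in 0 of 12 windows of the 9 members that had an entry. A match describes letters and not a bound site.

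All 11 measured markers of medium spiny neurons were detected on all 12 arrays. Their summed intensity differed by no more than 1.15-fold over the 12 pools. Sums for oligodendrocyte and astrocyte markers were about as steady, at 1.10-fold and 1.21-fold, so a steady sum does not identify the tissue. Between 22189 and 23803 probes were detected per array. On the same measure the 10 measured cortical neuron markers, a sum dominated by Lamp5, differed by 1.70-fold. Some single cortical genes differed widely between pools of the same group. Slc17a7, the vesicular glutamate transporter of cortical neurons, ran from 16.9 to 1203, and 7 of the 10 measured cortical markers correlated above 0.8 with Cck. These pools are compared further with Cck and Pvalb. The values in this report are the authors' background-subtracted, quantile-normalized intensities, and fold changes are on the log2 scale with values under 10 set to 10. In these bulk samples fewer cells of a type and less RNA per cell cannot be told apart.

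**Figure D1:**
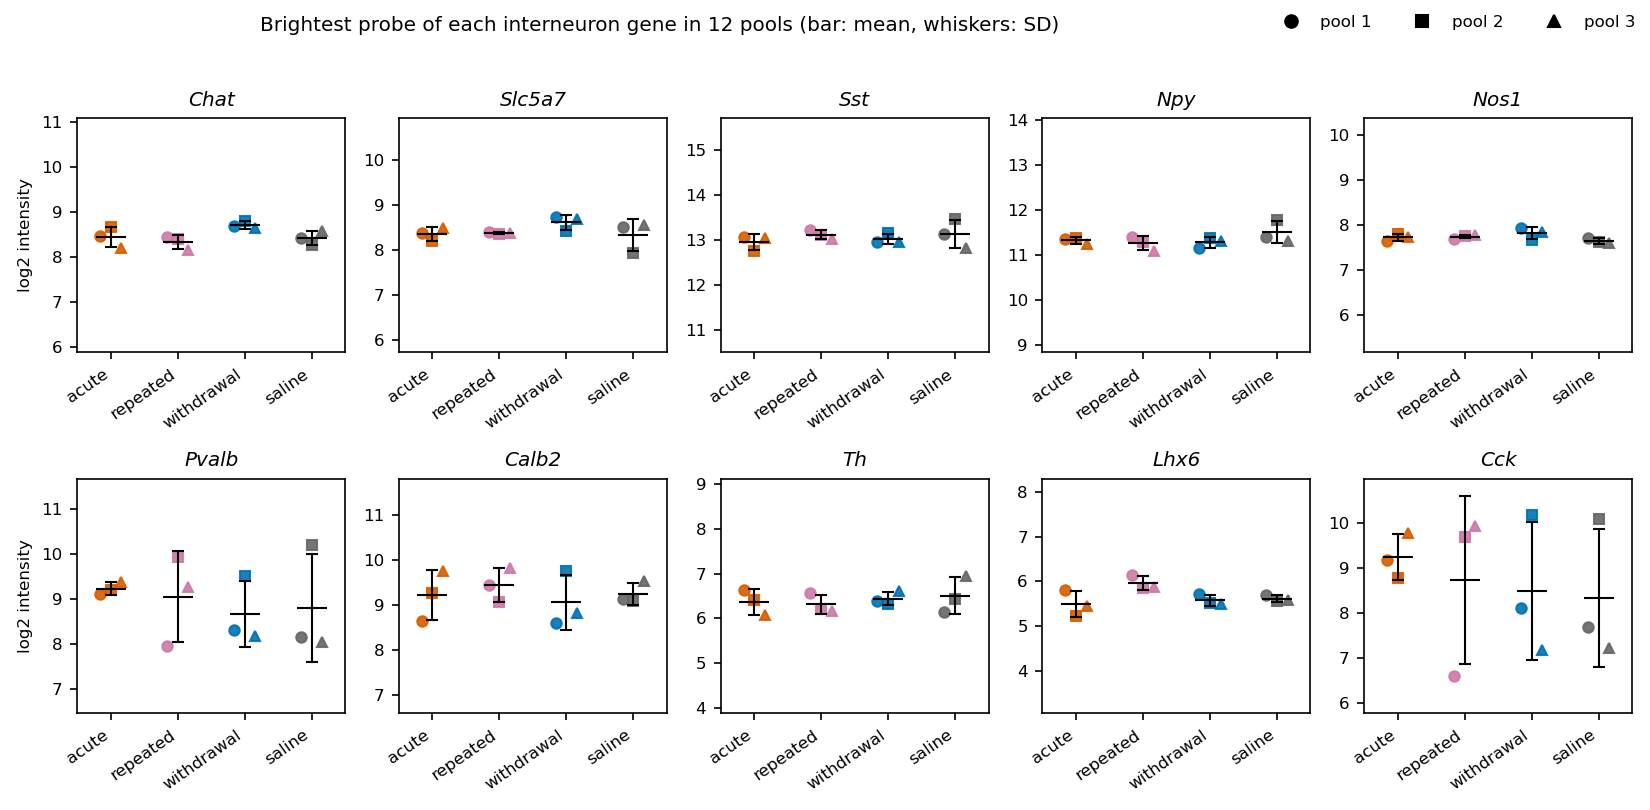
Log2 intensity of the brightest kept probe of each gene in acute, repeated, withdrawal and saline pools, with the pool number given by the marker shape, the group mean by the bar and the SD by the whiskers (n = 3). Every panel spans the same number of log2 units around its own centre, so spreads can be compared but levels cannot. Cck and Pvalb span several-fold within the repeated, withdrawal and saline groups and less within acute, while the pools of Nos1 lie closest together.

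None of the 13 kept probes passed limma's adjusted test between any groups. The threshold was an adjusted p of 0.05, with Benjamini-Hochberg adjustment over all 25478 kept probes. The lowest adjusted p of a member probe was 0.545, for Lhx6 in repeated against saline, and limma's F test across the groups gave a lowest adjusted p of 0.812. The count was 0 of 13 in each of the 6 pairwise comparisons, against 0% of all kept probes in 5 of them and in the F test, and 0.00392% (1 probe, no member) in repeated against acute. At an unadjusted limma p under 0.05 the 6 comparisons gave 6 of 78 pairs of probe and comparison. They were 1 of 13 in acute against saline (4.44% of all kept probes), 1 in repeated against saline (8.89%), 0 in withdrawal against saline (7.81%), 1 in repeated against acute (5.41%), 1 in withdrawal against acute (5.65%) and 2 in withdrawal against repeated (2.11%). Limma's F test gave 2 of 13 probes under 0.05, the dimmer Nos1 probe (unadjusted p = 0.0479) and Lhx6 (unadjusted p = 0.0427; adjusted p = 0.812 for both), against 6.15% of all kept probes. The range of a probe's 4 group means, in units of its SD between pools, had a median of 0.938 over the member probes and of 1.24 over all kept probes. Of the 13 probes 6 lay above the median of all kept probes.

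The submitters used a looser rule, a 1.3-fold change together with an unadjusted p below 0.05, and with limma's p it was met in 5 of the 78 pairs. In acute against saline 1 of 13 probes met it, beside 2.77% of all kept probes. In repeated against saline 0 of 13 did, beside 4.59%, and in withdrawal against saline 0 of 13, beside 3.94%. Repeated against acute gave 1 of 13, beside 3.18%. Withdrawal against acute gave 1 of 13, beside 3.39%, and withdrawal against repeated gave 2 of 13, beside 1.55%. The 5 pairs came from 3 probes only: the dimmer Nos1 probe, Lhx6 and the brightest Chat probe. With 13 probes, each single probe is 7.69% of the members, so these counts say little beyond which probes they are.

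Groups that did not overlap, with every pool of one group above every pool of the other, were found in 7 of the 78 pairs. They numbered 0 of 13 in acute against saline (7.34% of all kept probes), 1 in repeated against saline (16.6%), 1 in withdrawal against saline (14.3%), 1 in repeated against acute (10.4%), 1 in withdrawal against acute (9.7%) and 3 in withdrawal against repeated (7.34%). The members involved were Lhx6, Chat, Slc5a7 and the dimmer Nos1 probe.

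**Figure D2:**
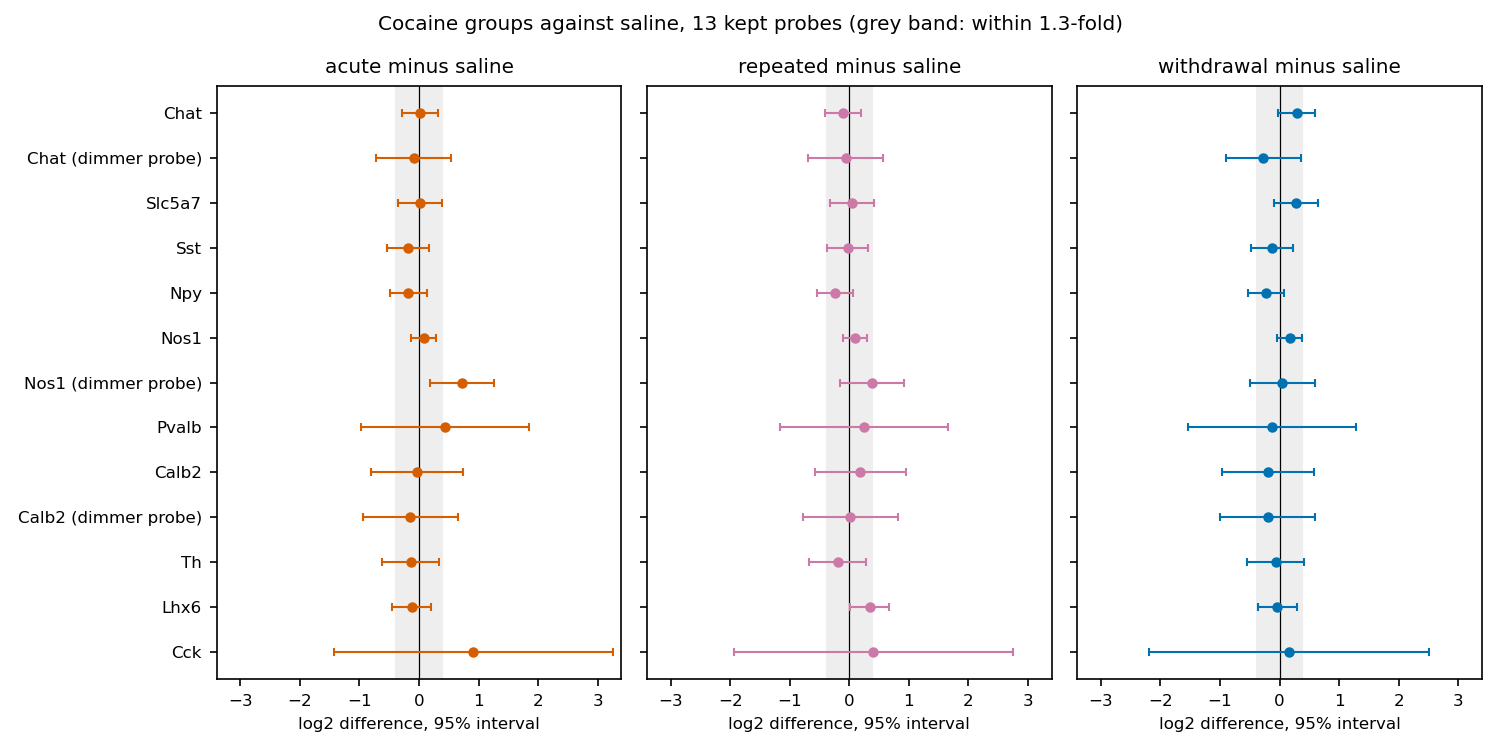
Log2 difference from saline of the 13 kept probes in acute, repeated and withdrawal pools (points) with limma's 95% interval (bars, n = 3 pools a group), and a grey band within 1.3-fold. Most points lie inside the band, and the intervals of Cck and Pvalb run far past it on both sides.

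The cholinergic genes Chat and Slc5a7 had their highest group means in withdrawal. Chat (brightest probe, ILMN_2827248) measured 355, 405 and 296 in acute pools, 348, 337 and 286 in repeated pools, 412, 450.4 and 401 in withdrawal pools, and 345, 311 and 384 in saline pools. All 3 withdrawal pools lay above all repeated and all saline pools and overlapped the acute ones. Withdrawal minus repeated was 0.38 ± 0.14 on the log2 scale (SE, n = 3 each; limma unadjusted p = 0.0181, adjusted p = 1), and withdrawal minus saline was 0.29 ± 0.14 (unadjusted p = 0.0627, adjusted p = 0.642). The first difference stayed between 0.30 and 0.44 with single pools left out and met the looser rule no longer without repeated pool 3 or withdrawal pool 2. Without the 4 pools numbered 1 it was 0.45 and also missed that rule (limma unadjusted p = 0.069).

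A second Chat probe (ILMN_2656864) did not follow the first. It measured 80.6, 59.6 and 36.0 in acute pools, 51.2, 72.2 and 49.4 in repeated pools, 47.6, 59.6 and 41.5 in withdrawal pools, and 49.7, 58.3 and 71.7 in saline pools. Its groups overlapped throughout, its mean was lowest in withdrawal, and withdrawal minus saline was -0.27 ± 0.28. The correlation of the 2 probes over the 12 pools was 0.21.

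Slc5a7, the high-affinity choline transporter, measured 337, 294 and 362 in acute pools, 339, 329.7 and 335 in repeated pools, 426, 346 and 416 in withdrawal pools, and 369.6, 245 and 377 in saline pools. The withdrawal pools lay just above the repeated ones, and saline pool 2 was lower than every other pool. Withdrawal minus saline was 0.28 ± 0.17 (95% interval -0.09 to 0.65, limma adjusted p = 0.693) and withdrawal minus repeated 0.24 ± 0.17 (limma adjusted p = 1). Acute and repeated differed from saline by 0.02 ± 0.17 and 0.04 ± 0.17. These differences depended on saline pool 2: without it withdrawal minus saline was 0.08, acute minus saline -0.18 and repeated minus saline -0.16. With the replicate number as a block, withdrawal minus saline had a limma unadjusted p of 0.0481 (adjusted p = 0.471), against 0.121 without the block.

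Of 9 listed partners of Chat and Slc5a7 in the cholinergic cell 8 were measured, and 1 of the 8 had its highest group mean in withdrawal. This was Ngfr, a neurotrophin receptor, whose groups came in the order of Chat, at 0.00 in acute, -0.38 in repeated and 0.04 in withdrawal minus saline. In each cocaine group 6 of the 8, though not the same 6, were lower than saline, with median log2 differences of -0.13 in acute, -0.16 in repeated and -0.16 in withdrawal, beside medians of all genes within 0.01 of 0. Slc18a3, the vesicular acetylcholine transporter, whose gene lies within the first intron of Chat, was -0.38 in acute minus saline (limma unadjusted p = 0.0248), -0.28 in repeated minus saline and -0.30 in withdrawal minus saline. Gbx2, a transcription factor of cholinergic interneuron precursors, was -0.38 in withdrawal minus saline (limma unadjusted p = 0.0174). In none of the 6 comparisons did any of the 8 pass the adjusted threshold, nor did any of 8 measured acetylcholine receptors. Lhx8 and Isl1, which specify cholinergic neurons, differed from saline by at most 0.19 in size, with SEs of 0.39 for Lhx8 and 0.13 for Isl1. Lhx8 spanned 2.63-fold over the pools, so its differences are imprecise.

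The genes of the Sst, Npy and Nos1 class differed little between groups at their brightest probes. Sst measured 8590.4, 6865 and 8440.4 in acute pools, 9478, 8799 and 8235 in repeated pools, 7871, 9022 and 7945 in withdrawal pools, and 8991, 11181 and 7247 in saline pools. The saline pools alone spanned 1.54-fold and enclosed every value but 1, acute pool 2, and the spread of Sst within groups was above that of 96.1% of like-bright probes. Differences from saline were -0.18 ± 0.16 in acute, -0.03 ± 0.16 in repeated and -0.12 ± 0.16 in withdrawal, and -0.03, 0.13 and 0.03 without saline pool 2. The interval that reached lowest, in acute, ran from -0.53 to 0.17, which leaves room for a 1.3-fold decrease.

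Npy measured 2613, 2643 and 2407 in acute pools, 2707, 2489.7 and 2170.2 in repeated pools, 2254, 2648 and 2525 in withdrawal pools, and 2707, 3506 and 2534 in saline pools. Its mean was lower than saline in all 3 cocaine groups, by -0.18 ± 0.14, -0.24 ± 0.14 and -0.22 ± 0.14 (SE; limma adjusted p = 1, 0.634 and 0.697 in acute, repeated and withdrawal), and saline pool 2 was the highest of all. Without that pool the differences shrank to -0.04, -0.10 and -0.08. Npy, a peptide that inhibits transmitter release, and Sst correlated over the pools (r = 0.65, with its tests given further on), and both had their maximum in saline pool 2. Of 10 listed receptors for somatostatin, neuropeptide Y and cholecystokinin, 6 were measured and 0 passed the adjusted threshold in any comparison. The somatostatin receptor Sstr2 was 0.53 in acute minus saline (limma unadjusted p = 0.0596).

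Nos1 had 2 kept probes, both with means above saline in all 3 cocaine groups, that differed in the size and the order of these differences. The brighter (ILMN_2477527) had the smallest spread of all members: 199, 220.0 and 212 in acute pools, 206, 214 and 218 in repeated pools, 244, 203 and 227 in withdrawal pools, and 209, 195 and 193 in saline pools. Its SD between pools of a group was 0.08 log2, lower than in all but 3.09% of probes of like brightness, and its largest difference from saline was 0.17 ± 0.09, in withdrawal (interval -0.04 to 0.37).

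The dimmer Nos1 probe (ILMN_2770096) measured 27.7, 44.7 and 40.9 in acute pools, 22.3, 33.1 and 33.9 in repeated pools, 21.4, 22.5 and 26.2 in withdrawal pools, and 18.2, 20.8 and 30.1 in saline pools. Acute pools lay above all withdrawal pools, and acute pool 1 fell below the highest saline pool. Acute minus saline was 0.72 ± 0.24 (1.64-fold; limma unadjusted p = 0.0143, adjusted p = 1) and withdrawal minus acute was -0.67 ± 0.24 (unadjusted p = 0.0202, adjusted p = 0.848). Acute minus saline fell short of the looser rule without acute pool 2 or without saline pool 1, and withdrawal minus acute did without acute pool 2, acute pool 3, withdrawal pool 1 or withdrawal pool 2. On signals without background subtraction acute minus saline shrank to 0.15 with an offset of 50 added. Repeated minus saline was 0.38 and repeated minus acute -0.34, with limma unadjusted p = 0.150 and 0.194, and 0.0305 and 0.0474 with the replicate number as a block (adjusted p = 0.400 and 0.668). The correlation of the 2 Nos1 probes was 0.10, and the array table names no transcript for the brighter one. Of 10 other measured genes of nitric oxide signalling, 0 passed the adjusted threshold in any comparison. Gucy1b1, a subunit of the soluble guanylate cyclase that nitric oxide activates, was 0.26 in withdrawal minus saline (limma unadjusted p = 0.0276).

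Lhx6 was the member whose group means stood furthest apart relative to its spread. Its brighter probe measured 55.7, 37.6 and 43.6 in acute pools, 70.3, 58.2 and 58.8 in repeated pools, 52.7, 45.9 and 45.3 in withdrawal pools, and 52.1, 47.1 and 48.3 in saline pools. All 3 repeated pools lay above all 9 others. Repeated minus acute was 0.47 ± 0.15 (1.38-fold; limma unadjusted p = 0.00945, adjusted p = 0.878), repeated minus saline 0.34 ± 0.15 (unadjusted p = 0.0412, adjusted p = 0.545) and withdrawal minus repeated -0.38 ± 0.15 (unadjusted p = 0.0262, adjusted p = 1). With single pools left out, repeated minus acute stayed between 0.34 and 0.62 and repeated minus saline between 0.25 and 0.39. Repeated minus acute fell short of the looser rule without acute pool 2 or repeated pool 1. Withdrawal minus repeated did so without repeated pool 1, withdrawal pool 2 or withdrawal pool 3, and without the 4 pools numbered 1 (-0.36), and repeated minus saline came to meet it without repeated pool 2 or saline pool 1. Its second probe, which is annotated to the RefSeq transcript of Lhx6, was not detected on any array. The pattern rests on 1 probe, which is annotated to another sequence and not to that transcript. Among 13 other measured transcription factors of interneurons, including Nkx2-1, Dlx1, Dlx5 and Prox1, 0 passed the adjusted threshold in any comparison, and their median differences from saline were -0.02 in acute, 0.05 in repeated and -0.02 in withdrawal. Pvalb and Sst, the products of the cells that Lhx6 marks, had repeated minus saline differences of 0.25 ± 0.63 and -0.03 ± 0.16.

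Th measured 98.8, 85.0 and 67.1 in acute pools, 94.4, 74.4 and 71.8 in repeated pools, 84.0, 80.3 and 97.9 in withdrawal pools, and 70.5, 86.1 and 124 in saline pools. All groups overlapped, and saline held both its highest value and a value near its lowest. The differences from saline were -0.14, -0.19 and -0.06 (SE 0.22) in acute, repeated and withdrawal, and turned to 0.08, 0.03 and 0.16 without saline pool 3. Midbrain dopamine neurons send axons into this tissue, and their own transporter genes were faint, with Slc6a3 detected on 7 arrays and Slc18a2 on 5. Ddc, the next enzyme after Th, was detected on all 12 arrays and was -0.37 in acute minus saline (limma unadjusted p = 0.0183), and Gch1, which makes the cofactor of Th, was 0.32 in repeated minus saline (limma unadjusted p = 0.00854). Slc18a2, the vesicular monoamine transporter, was 1.01 in withdrawal minus saline (limma unadjusted p = 0.0227), from signals near background. Of 9 measured genes of catecholamine synthesis and transport, 0 passed the adjusted threshold in any comparison.

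Calb2, the calretinin gene, measured 401, 617 and 864 in acute pools, 697, 538 and 903 in repeated pools, 389.5, 863 and 454 in withdrawal pools, and 565, 544 and 744 in saline pools. Its pools differed by up to 2.21-fold within withdrawal and 1.37-fold within saline, and the groups overlapped. The differences from saline were -0.03, 0.19 and -0.19 (SE 0.35) in acute, repeated and withdrawal. A second probe gave the same ordering of pools to a large degree (r = 0.90), and its differences from saline were -0.15, 0.02 and -0.20 (SE 0.36). The spread of both Calb2 probes was among the highest for their brightness, above 99.7% and 98.3% of like-bright probes.

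The widest spread of all was that of Cck and Pvalb. Cck measured 584, 439.7 and 884 in acute pools, 96.9, 829 and 979.6 in repeated pools, 278, 1166 and 146 in withdrawal pools, and 206, 1094 and 151 in saline pools. It spanned 12.0-fold over the 12 pools and 7.26-fold within saline, so its highest and lowest pools do not separate the groups. Pvalb measured 551, 585 and 668 in acute pools, 248, 981 and 613 in repeated pools, 318, 731 and 287 in withdrawal pools, and 286, 1165 and 265 in saline pools. It spanned 4.69-fold over all pools and 4.4-fold within saline. The SD between pools of a group was 1.45 log2 for Cck and 0.87 log2 for Pvalb, above 99.97% and 99.93% of probes of like brightness.

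**Figure D3:**
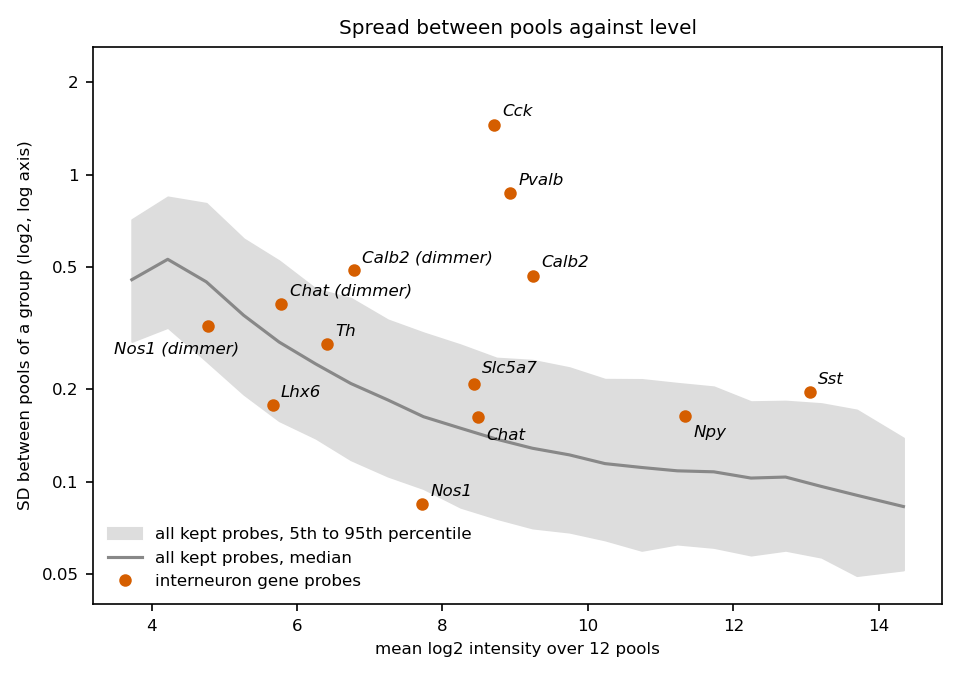
SD between pools of the same group (log2, log axis) against mean log2 intensity over the 12 pools, with the 13 kept interneuron probes as labelled points, the median of all kept probes as a line and their 5th to 95th percentile as a grey band. Cck and Pvalb stand far above the band, both Calb2 probes and Sst less far above it, and the brighter Nos1 probe below it.

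With this spread no difference in Cck or Pvalb was detectable unless it was very large. Acute minus saline was 0.91 ± 1.05 for Cck, with a 95% interval from -1.43 to 3.26, or 0.371-fold to 9.57-fold. For Pvalb it was 0.43 ± 0.63, with an interval from -0.98 to 1.84. Leaving out single pools moved the Cck difference between 0.36 and 1.79 in acute minus saline, and from -0.68 to 1.04 in withdrawal minus saline, where its sign turned. For Pvalb the same ranges were 0.05 to 1.12 and -0.56 to 0.56, and saline pool 2 gave the upper end of all 4 ranges when it was left out.

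Cck and Pvalb were high in the same pools. Their log2 intensities correlated with r = 0.931 over the 12 pools (permutation p = 2e-05, adjusted p = 0.0009 over 45 pairs of members) and rho = 0.909 (permutation adjusted p = 0.0081). Without the 2 pools farthest from the median the correlation was 0.905, after subtraction of group means it was 0.935, and it was 0.912 within the 8 pools numbered 2 and 3. Of the 45 pairs this was the 1 that passed after adjustment. The next largest in size crossed cell classes. Slc5a7 gave r = -0.71 with Npy (permutation p = 0.0184, adjusted p = 0.276), and -0.03 without the 2 farthest pools. With Pvalb it gave r = -0.71 (permutation p = 0.00619, adjusted p = 0.139), and -0.55 without the 2 farthest pools. The pairs that mark one cell class did not pass either. Nos1 went against the other 2 genes of its class, with r = -0.60 with Npy (permutation p = 0.0447, adjusted p = 0.402). With Sst it gave r = -0.42 (permutation p = 0.174, adjusted p = 0.632). Sst and Npy gave r = 0.65 (permutation p = 0.0312, adjusted p = 0.351) and rho = 0.61 (permutation p = 0.0391, adjusted p = 0.558), and r = 0.50 without the 2 farthest pools. Chat and Slc5a7 gave r = 0.37 (permutation p = 0.234, adjusted p = 0.648) and rho = 0.41 (permutation p = 0.185, adjusted p = 0.741).

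**Figure D4:**
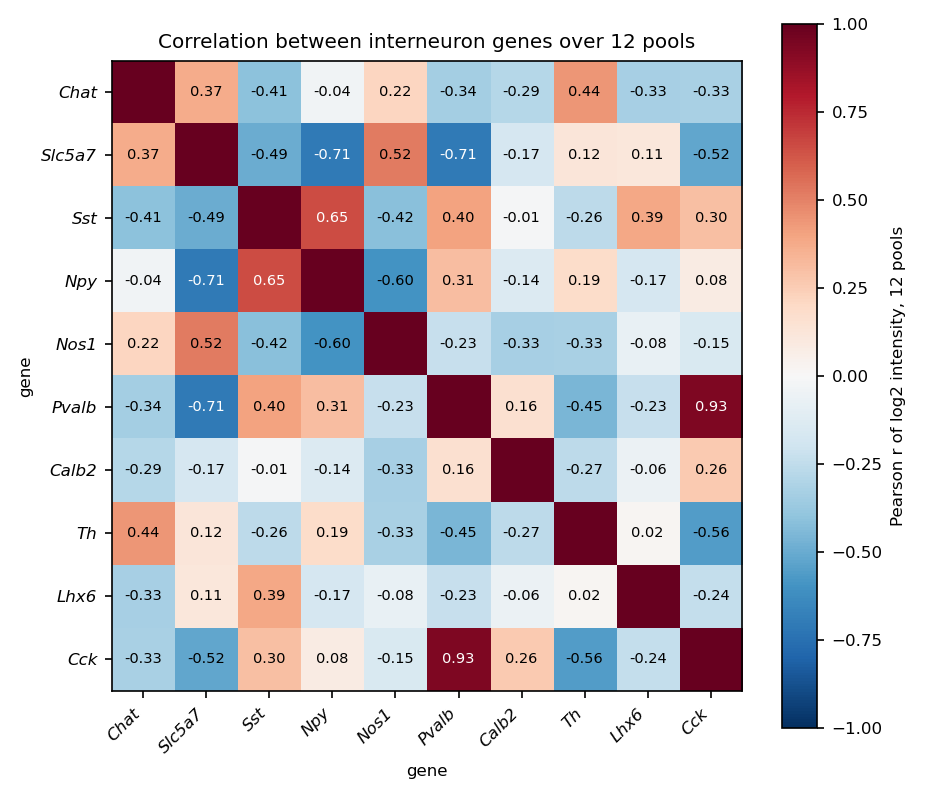
Pearson correlation of log2 intensity between the 10 genes (brightest kept probe of each) over the 12 pools, on a colour scale from -1 (blue) to 1 (red). The square of Cck and Pvalb, at 0.93, is the 1 pair that passed after adjustment.

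Most, not all, markers of cortical neurons were high in the pools that were high in Cck and Pvalb. Of 10 measured, 7 correlated above 0.8 with Cck and 4 with Pvalb. Emx1 gave 0.43 with Cck and 0.48 with Pvalb, Cux2 0.05 and 0.22, and Lamp5 went the other way at -0.65 and -0.44. The mean log2 level of 10 measured cortical markers correlated with Cck at r = 0.978 and with Pvalb at r = 0.930 (permutation adjusted p = 0.0007 for both, over 70 pairs of member and marker list, with rho = 0.944 and 0.986 and permutation adjusted p = 0.0014 and 0.0007). Without the 2 farthest pools the values were 0.976 and 0.910, and within groups 0.986 and 0.959. The genes and lists were chosen with earlier results of these data known. The p-values of all member and list correlations are therefore descriptive and not an independent test. For the other 8 members Pearson's r with the cortical markers ran from -0.55 (Th) to 0.35 (Sst) and Spearman's rho from -0.56 (Slc5a7) to 0.34 (Sst) over all 12 pools, with no adjusted permutation p under 0.323 for either. Within groups the extremes were -0.63 (Slc5a7) and 0.53 (Sst), and over the 8 pools numbered 2 and 3 they were -0.83 (Th) and 0.72 (Sst). Neurod6, another cortical marker on the list, had no kept probe. The summed intensity of the 10 measured markers, dominated by Lamp5, ran from 4951 to 5917 in acute pools, 5033 to 5892 in repeated pools, 4789 to 5849 in withdrawal pools, and 3999 to 6779 in saline pools.

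The single cortical genes show the size of this variation. Slc17a7 measured 452, 231 and 821 in acute pools, 16.9, 747 and 694 in repeated pools, 236, 1055 and 75.1 in withdrawal pools, and 114, 1203 and 28.3 in saline pools, a range of 71.1-fold. Nrn1, a neurotrophic factor of excitatory neurons, spanned 34.9-fold and Neurod2, a transcription factor of excitatory neurons, 25.9-fold. Tbr1, a factor of deep-layer cortical neurons, was detected on 10 arrays and reached 327 in withdrawal pool 2, while it read 0.786 in repeated pool 1 and -5.72 in saline pool 3. Repeated pool 1, withdrawal pool 3 and saline pools 1 and 3 were low in Cck and in these genes, and withdrawal pool 2 and saline pool 2 were high. The part of cortical tissue in the Cck and Pvalb values was not tested.

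The mean of the midbrain dopamine neuron markers also followed Cck (r = 0.937, permutation adjusted p = 0.0007; rho = 0.916, permutation adjusted p = 0.00327) and Pvalb (r = 0.853, permutation adjusted p = 0.0161; rho = 0.881, permutation adjusted p = 0.00647). Of the 8 markers 4 were measured, and Foxa2, Pitx3, En1 and Lmx1b had no kept probe. Nr4a2, a nuclear receptor that cortical neurons and the claustrum express too, correlated at 0.94 with Cck and 0.91 with Pvalb. Aldh1a1 gave 0.48 and 0.61, Slc18a2 0.43 and 0.20, and the dopamine transporter Slc6a3 -0.01 and -0.05. Their summed intensity ran from 215 to 289 in acute pools, 167 to 372 in repeated pools, 164 to 346 in withdrawal pools, and 155 to 359.6 in saline pools, and their part in the Cck and Pvalb values was not tested.

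**Figure D5:**
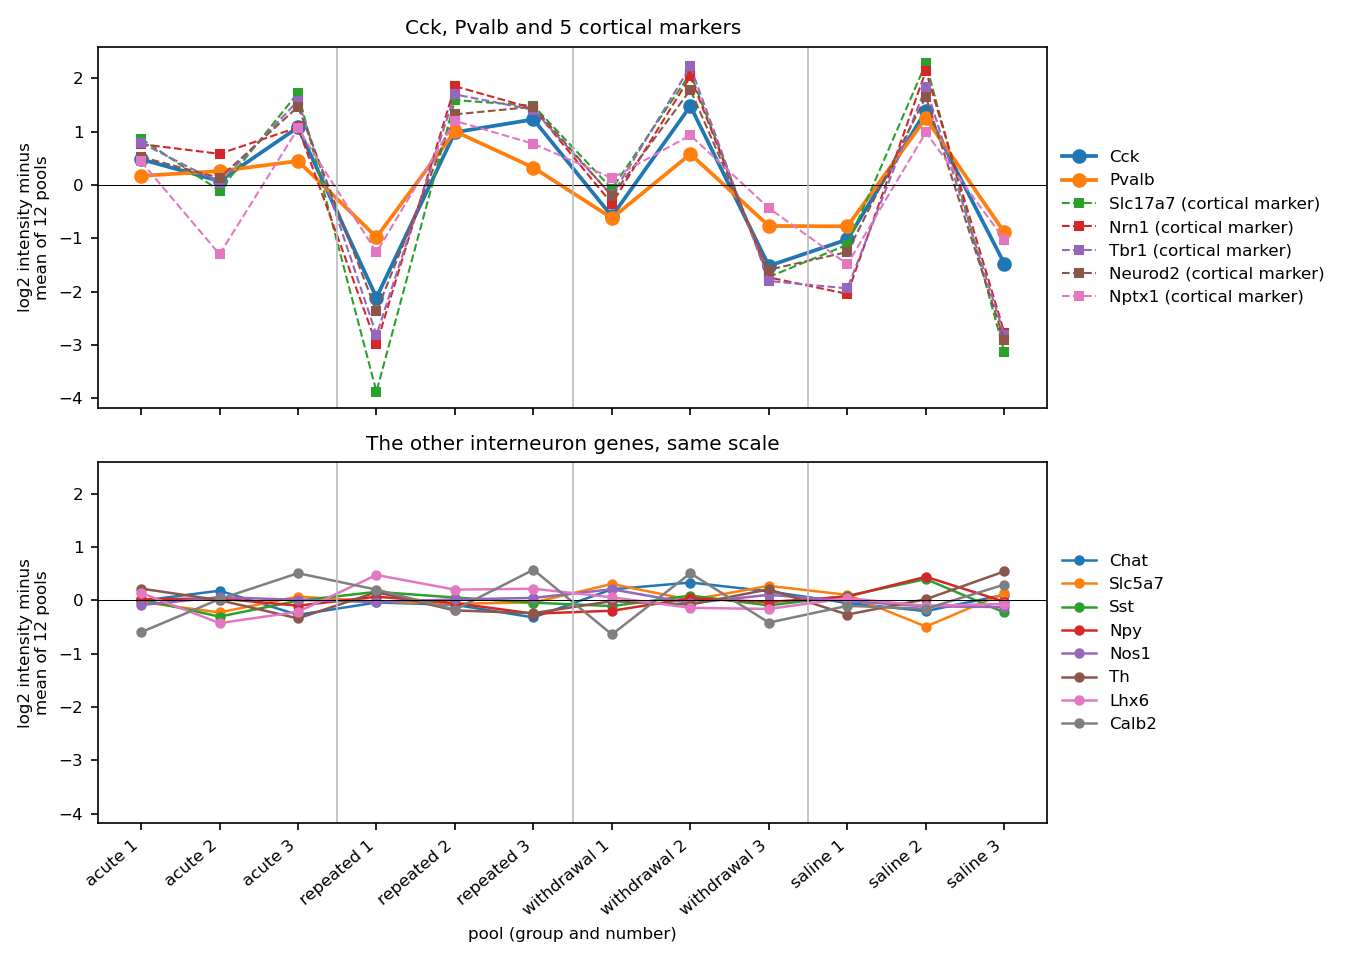
Log2 intensity minus the mean of 12 pools, in acute, repeated, withdrawal and saline pools, for Cck, Pvalb and 5 cortical markers (upper) and for the other 8 interneuron genes on the same scale (lower). Cck and Pvalb are high and low in the same pools as these 5 markers, and the other interneuron genes stay within 1 log2 unit of their means. The 5 shown, of 10 measured, all correlated above 0.8 with Cck. Lamp5 (r = -0.65 with Cck), Cux2 (0.05) and Emx1 (0.43) did not and are not shown.

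The genes most like each member over the pools differed in the same way. The 3 genes with the highest correlation with Cck, among 12731 searched, were Tbr1 (r = 0.980), Nrn1 (0.975) and Neurod2 (0.973). Those of Pvalb were Necab3 (0.991), Nrip3 (0.969) and Tspan17 (0.966). In all, 67 genes correlated above 0.9 with Cck and 57 with Pvalb, and the 39 in both lists were 58.2% of the Cck list and 68.4% of the Pvalb list. The other 8 members had between 0 and 3 such genes, among them Mlec for Lhx6 (0.927), Pard6a for Sst (0.932) and Krr1 for Slc5a7 (0.936). These correlations are descriptions over 12 pools picked from many genes.

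Other interneuron markers ranged widely in how far they followed Cck and Pvalb. Of 12 measured, Vip, the vasoactive intestinal peptide of another interneuron class, spanned 7.54-fold and correlated with Cck at r = 0.952, and Nxph2 at r = 0.929. With Pvalb, Vip gave 0.92, Nxph2 0.88, Elfn1 0.81 and Nxph1 0.61. Of the genes known from fast-spiking cells, the potassium channels Kcnc2 and Kcnc1 gave 0.65 and 0.40 with Pvalb, and Cox6a2 gave 0.52. Chodl and Tacr1, found in Sst and Nos1 cells, correlated with Cck at -0.52 and -0.37. In differences from saline 0 of the 12 passed the adjusted threshold in any group, with medians of 0.10 in acute, 0.13 in repeated and 0.04 in withdrawal.

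Calb2 moved with another set of neighbours. Its log2 level correlated at r = 0.796 with the mean of 5 measured septal and pallidal markers, which lie beside the accumbens (permutation adjusted p = 0.0421; rho = 0.741, permutation adjusted p = 0.0897; 0.719 without the 2 farthest pools). Th correlated at r = -0.750 with 8 astrocyte markers (permutation adjusted p = 0.0545; rho = -0.811, permutation adjusted p = 0.0314). For both, Pearson's and Spearman's tests lay on different sides of the threshold. Single genes of the septal and pallidal list were not set against Calb2, so how many of them carry the correlation is not known. The part of neighbouring tissue in the Calb2 values was not tested.

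Genes that respond to neuronal activity gave larger differences in the same pools, with 0 of 11 past the adjusted threshold. All 11 measured activity-induced genes, which neurons switch on within an hour of stimulation, were higher than saline in each cocaine group, with median log2 differences of 0.69 in acute, 0.56 in repeated and 0.40 in withdrawal. The looser rule was met by 10, 9 and 4 of them, beside 2.14%, 3.74% and 2.82% of all genes. Over the same comparisons the 10 interneuron genes had medians of -0.01, 0.07 and -0.05, with 5, 6 and 4 of 10 higher. Genes of GABA synthesis and transport, shared by interneurons and medium spiny neurons, had medians of -0.06, 0.12 and 0.12 over 5 measured members, and 0 passed the adjusted threshold.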

How the data were processed

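RNA of 12 pools was measured on Illumina bead arrays. Per the series text, the authors subtracted background and quantile normalized in BeadStudio (version not given in the sources used here). Each of the deposited tables contains intensity values normalized across arrays, and the one used here equals the other minus a constant of 60.7. The detection p-value of each probe and array is deposited too, per the file headers. Groups came from the sample labels. The array columns carry other short names ("cont" for the repeated pools), whose meaning these sources leave unexplained.

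The 10 genes and all lists were chosen with earlier results of these data known. Intensities were given a floor of 10 before log2. A total of 25478 probes of 45281 passed the detection filter, and each gene's brightest such probe stands for it. The fit used limma 3.58.1 and R 4.3.3 (lmFit, eBayes, 4 group means, 12 arrays, two-sided), adjusted by Benjamini-Hochberg over all kept probes, and tested on simulated data. For each member the 3 most correlated genes are named; list genes were named after their values were seen. Like-bright probes lie within 0.5 log2. Correlations over pools used 100000 permutations. These treated the 12 pools as exchangeable, although same-numbered pools were correlated (below), so their p-values are descriptive. The labels call the pools independent biological replicates, and 3 per group limits the precision.

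Replicate numbers are shared by the groups. Every correlation of same-numbered pools was above 0.1 in repeated against saline (0.468, 0.344 and 0.133), withdrawal against saline and repeated against acute. In the other 3 comparisons all were positive but not all above 0.1 (lowest 0.0255). There the pools numbered 1 still gave 0.459 in acute against saline, 0.402 in withdrawal against acute and 0.414 in withdrawal against repeated.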

Additional observations from a re-analysis of the deposited data

How the results depend on the processing

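Under 23 alternatives, or 22 for the F test (filters, floors, unsubtracted signals, array weights, blocks, the 2 groups alone, pools left out) 0 member probes passed the adjusted threshold in any comparison or in the F test, and the lowest adjusted p was 0.347 (limma). With the replicate number as a block the counts under the looser rule stayed at 1 in acute against saline, 0 in repeated against saline, 0 in withdrawal against saline, 1 in repeated against acute, 1 in withdrawal against acute and 2 in withdrawal against repeated, and the same 5 differences met it. At an unadjusted p under 0.05 the block kept all 6 and added 3, for Slc5a7 in withdrawal against saline and the dimmer Nos1 probe in repeated against saline and against acute. Unsubtracted signals, with or without an offset of 50, gave 0 in acute against saline, repeated against acute, withdrawal against acute and withdrawal against repeated, and array weights gave 0 in repeated against acute and withdrawal against acute. Leaving out pools gave 0 to 1 in acute against saline, 0 to 1 in repeated against saline, 0 to 2 in repeated against acute, 0 to 1 in withdrawal against acute and 0 to 2 in withdrawal against repeated. Background subtraction stretches log2 differences of dim probes, so unsubtracted values are smaller by construction. Of 1794 recomputed values 0 reversed a called direction, 24 lost an unadjusted p under 0.05 and 23 gained one. Among those with no call 96 values changed sign, and these came from 44 of the 78 differences followed. Dim signals limit Lhx6, Th and the second probes of Chat and Nos1.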
